A study of Arabidopsis thaliana with 12 samples.

Results

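Of the 22746 probe sets analysed on 12 arrays, 94 were selected on these same values as higher at 26 °C and, on average, little changed by far-red light. A probe set is the group of oligonucleotides that reports 1 transcript, and its value is a log2 expression level, on which a difference of 1 is a doubling. For each probe set the mean of each condition was taken. The average temperature difference is the mean of the 26 minus 22 °C differences in both lights, and the average far-red difference is the mean of the far-red minus white light differences at both temperatures. The 94 members had an average temperature difference of at least 0.4 and an average far-red difference between -0.15 and 0.15. Another 7 of the 101 probe sets inside these limits were left out by name or as organelle-encoded. A single gene is named for 45 members, several genes for 3, and the other 46 are unnamed here. Whether any of these 46 is organelle-encoded, or reports a gene left out by name, could not be checked. Because these differences chose the members, their sizes are given as a description, without a test.

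The plants were wild-type Arabidopsis thaliana, ecotype Columbia, and RNA came from the aerial parts at an age of 10 days. After 9 days in continuous white light at 22 °C, they were moved for 24 h to 1 of 4 conditions with 3 arrays each, which the labels call biological replicates. The conditions were white light plus supplemental far-red (WFR) at 26 °C, WFR at 22 °C, white light alone (WL) at 26 °C and WL at 22 °C. No source used here says whether replicates came from separate sowings, so p-values measure the spread between these samples.

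Warmth a few degrees above the usual growth temperature speeds elongation of stems and petioles and raises the leaves, a response called thermomorphogenesis. It shares components with shade avoidance, which plants start when far-red light reflected by neighbours inactivates phytochrome B. Phytochrome B is also a temperature sensor, and PIF transcription factors act below it in both responses. Stronger warmth additionally calls on heat shock factors and the chaperones they induce.

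**Figure D1:**
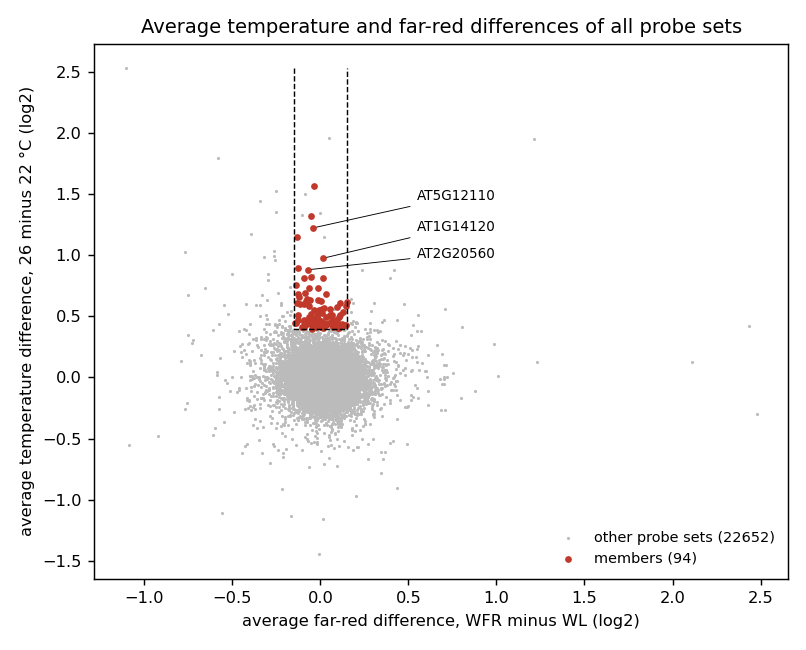
Each point is 1 probe set, with its average far-red difference (WFR minus WL, log2) on the horizontal axis and its average temperature difference (26 minus 22 °C, log2) on the vertical axis. Dashed lines enclose the region of the selection, the 94 members are red, and 7 grey points inside the lines were left out; members reach 1.57 on the vertical axis.

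Array medians lay between 6.91 and 7.01, and arrays of 1 condition correlated across probe sets at 0.995 to 0.998, where genes are not independent replicates. Arrays carry no read depth, so their number limits the precision. Few tissue markers had a named probe set. The leaf marker RCA (Rubisco activase) averaged 14.45, and the root hair expansins EXPA7 and EXPA18 averaged 4.99 and 5.23, on arrays whose values ran from 3.34 to 14.83. Levels of different probe sets are not on a common scale of transcript number, so these values do not test the label. In whole aerial parts, a change in the number of cells of a type cannot be told apart from a change in RNA per cell.

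The average temperature difference of the members ranged from 0.40 to 1.57, with a median of 0.50, or 1.41-fold. It was at least 0.6 in 26 members and at least 1 in 4. Among the latter, the unnamed probe set 252265_at had 1.15 ± 0.45 (SE), and its temperatures overlapped in WFR. The 26 and 22 °C arrays did not overlap in WL for 84 of 94 members (89.4%), against 8.31% of all probe sets. In WFR they did not overlap for 72 members (76.6%), against 9.75% of all probe sets, and in both lights for 65 (69.1%), against 3.02%. The selection used these contrasts, so nothing follows from the gaps to the background. AT5G37990, AT3G46280 and the unnamed probe set 253073_at overlapped in both lights.

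The 2 members with the highest average temperature difference have no named gene. Probe set 248332_at read 7.74, 7.74 and 7.52 in WFR at 26 °C, against 6.12, 6.45 and 6.36 in WFR at 22 °C. In WL it read 7.86, 7.97 and 7.90 at 26 °C, against 6.07, 6.29 and 6.05 at 22 °C. All 6 warm arrays lay more than 1 log2 unit above all 6 arrays of 22 °C, and the average difference was 1.57 ± 0.07 (SE). Probe set 258133_at followed with 1.32 ± 0.09, and its temperatures were also separate in both lights.

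Among named genes the highest value was that of AT5G12110, which encodes a subunit of translation elongation factor 1B, the exchange factor that recharges the carrier of aminoacyl-tRNA. Its log2 level was 10.46, 10.49 and 10.50 in WFR at 26 °C, against 9.21, 9.44 and 9.46 in WFR at 22 °C. In WL it was 10.60, 10.69 and 10.62 at 26 °C, against 9.43, 9.32 and 9.14 at 22 °C. Warm arrays formed a tight group about 1 unit above the others in both lights. The average temperature difference was 1.22 ± 0.06, or 2.33-fold, beside an average far-red difference of -0.04 ± 0.06.

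AT1G14120 encodes a 2-oxoglutarate-dependent dioxygenase close in sequence to DAO1, which oxidises the hormone auxin. In WFR its level was 7.30, 7.65 and 7.22 at 26 °C, against 6.46, 6.62 and 6.86 at 22 °C. In WL it was 7.21, 7.46 and 8.15 at 26 °C, against 6.51, 6.17 and 6.52 at 22 °C. The temperatures were separate in both lights, and the third WL array at 26 °C stood well above its 2 companions. The average temperature difference was 0.97 ± 0.14, or 1.97-fold. A second dioxygenase of the same broad family, AT1G06640, averaged 0.55 ± 0.07.

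Among chaperone-related genes the FK506-binding AT5G48570 and the co-chaperone Hop3, with average differences of 1.34 and 0.84, were inside both limits and left out by name. The one described here is AT2G20560, a DnaJ protein of the HSP40 family that hands unfolded clients to HSP70. Its level was 6.34, 6.40 and 6.47 in WFR at 26 °C, against 5.65, 6.07 and 5.79 in WFR at 22 °C. In WL it was 6.51, 7.00 and 6.85 at 26 °C, against 5.50, 5.55 and 5.73 at 22 °C. Warm arrays were higher in both lights, with a wider gap in WL. The difference was 0.57 ± 0.12 in WFR and 1.19 ± 0.12 in WL.

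Several named members act at the cell wall or on the cell surface. AT4G33420 and AT5G51890 encode class III peroxidases (PRX47 and PRX66) that have been tied to lignification of vessels. AT4G33420 read 6.51, 7.17 and 6.73 in WFR at 26 °C, against 6.16, 6.44 and 5.61 in WFR at 22 °C. In WL it read 6.89, 6.89 and 7.15 at 26 °C, against 5.84, 5.91 and 6.51 at 22 °C. Its replicates were widely spread and, in WFR, 1 array of 22 °C came close to the warm ones, with an average difference of 0.81 ± 0.15. AT5G51890 was more even: 10.04, 10.06 and 10.12 in WFR at 26 °C, against 9.51, 9.52 and 9.27 in WFR at 22 °C. In WL it read 10.02, 10.11 and 9.92 at 26 °C, against 9.73, 9.70 and 9.25 at 22 °C, and its average difference was 0.55 ± 0.08. Both peroxidases were separate by temperature in both lights.

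Other members at the wall or surface were TBL36, AT5G40020 and AT4G22490. TBL36, of the family that acetylates wall polysaccharides, averaged 0.40 ± 0.11, next to the lower limit of the selection. Its temperatures overlapped in WFR. AT5G40020, a thaumatin-like protein, averaged 0.63 ± 0.06. AT4G22490, of the lipid transfer and protease inhibitor family, was among the brightest members. It read 12.07, 12.06 and 12.24 in WFR at 26 °C, against 11.45, 11.39 and 11.73 in WFR at 22 °C. In WL it read 12.09, 11.80 and 11.76 at 26 °C, against 11.62, 11.65 and 11.56 at 22 °C. The temperatures were separate in both lights, with the narrower gap in WL, 0.28 against 0.60 in WFR.

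Carbon and chloroplast functions were represented by a few genes. PGRL1B helps return electrons from ferredoxin to the plastoquinone pool in cyclic electron flow around photosystem I. It read 10.20, 10.28 and 10.43 in WFR at 26 °C, against 9.63, 9.66 and 9.86 in WFR at 22 °C. In WL it read 10.31, 10.37 and 10.41 at 26 °C, against 9.93, 9.81 and 9.61 at 22 °C. The gap was nearly equal in the 2 lights, 0.58 ± 0.09 in WFR and 0.58 ± 0.09 in WL. AT1G62660, a vacuolar invertase that splits sucrose, behaved otherwise and is described with the comparison of the lights. AT5G47435, a formyltetrahydrofolate deformylase of photorespiratory folate metabolism, averaged 0.43 ± 0.05. ARD4, an acireductone dioxygenase of the methionine salvage cycle, averaged 0.49 ± 0.07.

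3 members are basic helix-loop-helix transcription factors. ALC and SPT are close relatives known from carpel and fruit development, and SPT also restrains growth of seedlings and leaves in cool conditions. ALC read 7.13, 7.10 and 7.14 in WFR at 26 °C, against 6.57, 6.42 and 6.73 in WFR at 22 °C. In WL it read 6.97, 7.15 and 6.93 at 26 °C, against 6.43, 6.63 and 6.59 at 22 °C. Its temperatures were separate in both lights, and its average difference was 0.51 ± 0.06. SPT read 6.48, 6.69 and 6.27 in WFR at 26 °C, against 6.00, 6.33 and 5.82 in WFR at 22 °C. In WL it read 6.54, 6.42 and 6.38 at 26 °C, against 5.97, 6.18 and 5.73 at 22 °C. Its values overlapped in WFR and were separate in WL, with an average of 0.46 ± 0.10. BHLH101, a regulator of the iron deficiency response, averaged 0.48 ± 0.13, and its temperatures overlapped in WFR. Its replicates spread over as much as 0.38 (SD, n = 3) in WFR at 26 °C.

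Further members act on lipids, small molecules or other proteins. CP5, which carries a lipid-binding START domain, was among the brightest members, with 12.19, 12.32 and 12.19 in WFR at 26 °C, against 11.92, 11.69 and 11.73 in WFR at 22 °C. In WL it read 12.45, 12.49 and 12.56 at 26 °C, against 11.92, 11.64 and 11.69 at 22 °C. The warm arrays were higher in both lights, by 0.45 in WFR and 0.75 in WL. AT2G39420 and AT1G77420, alpha/beta hydrolases of the monoacylglycerol lipase type, averaged 0.43 ± 0.09 and 0.44 ± 0.12. The temperatures overlapped in WFR for AT2G39420 and in WL for AT1G77420. AT2G41380, an S-adenosylmethionine-dependent methyltransferase, averaged 0.61 ± 0.11. AT1G12030, a protein of the DUF506 family, averaged 0.82 ± 0.15, and AT2G46250, related to myosin heavy chains, 0.65 ± 0.07. AT1G64360 and AT1G13990, for which no role is given here, averaged 0.63 ± 0.11 and 0.61 ± 0.09. The jacalin-type lectins JAL22 and AT1G52100 averaged 0.43 ± 0.10 and 0.40 ± 0.14.

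Not every large average rested on separate arrays. AT5G37990, a methyltransferase of the SABATH family, which methylates small acids, read 6.11, 7.32 and 6.66 in WFR at 26 °C, against 5.22, 5.49 and 8.06 in WFR at 22 °C. In WL it read 7.12, 6.38 and 7.67 at 26 °C, against 6.74, 5.61 and 5.24 at 22 °C. Its highest value of all came from a 22 °C array, and its average difference of 0.81 had a standard error of 0.43. Without that array the average was 1.27. AT3G46280, a kinase-like protein, read 5.54, 6.12 and 5.75 in WFR at 26 °C, against 5.46, 6.29 and 4.81 in WFR at 22 °C. In WL it read 5.45, 5.34 and 7.25 at 26 °C, against 5.15, 5.40 and 5.46 at 22 °C. Its average was 0.48 ± 0.30, and 0.17 without the third WL array at 26 °C, which stood far above all others, and was 0.30 without the third WFR array at 22 °C. AT2G07718 lies in the copy of mitochondrial DNA within chromosome 2, and signal from the mitochondrial transcript cannot be told apart from its own; it averaged 0.52 ± 0.06.

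**Figure D2:**
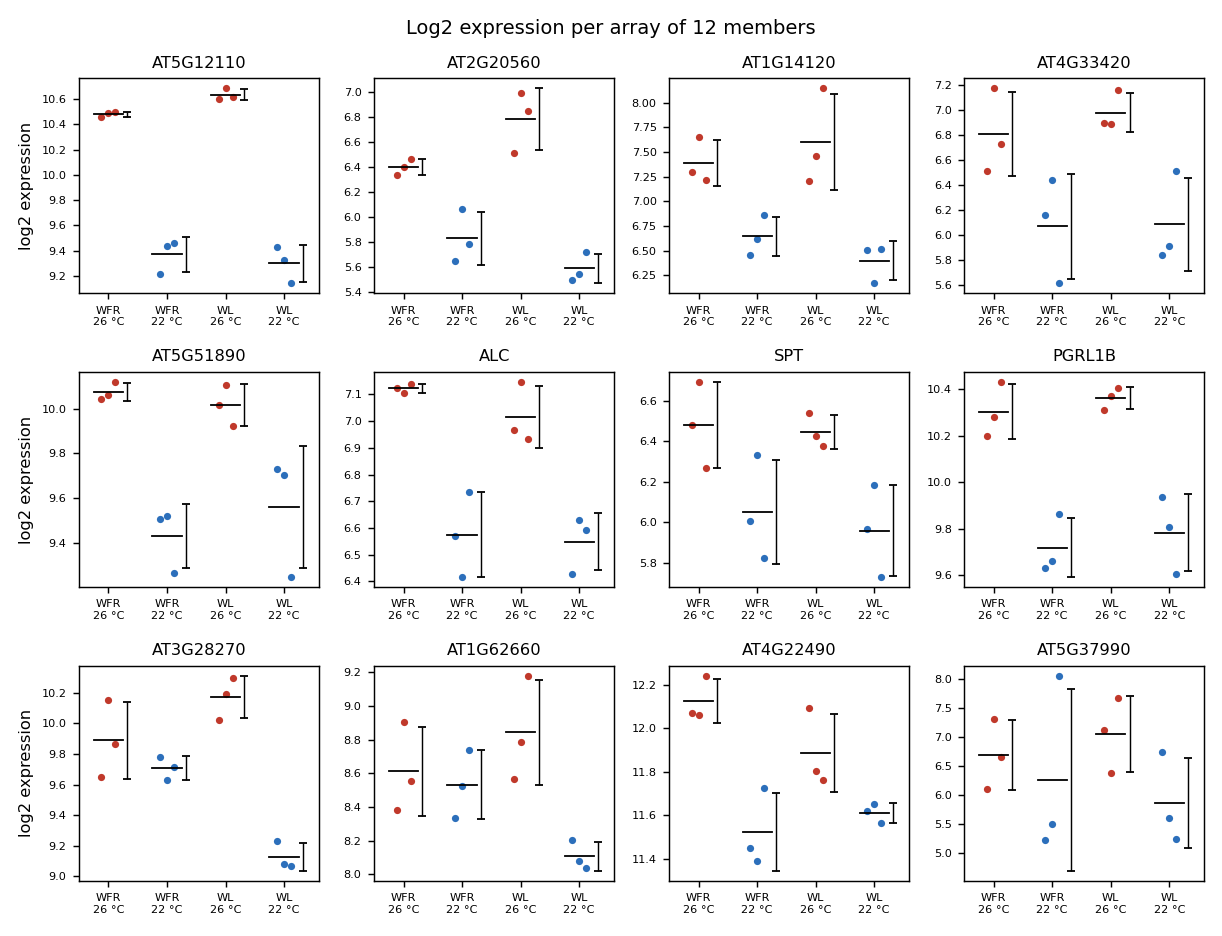
Dots are single arrays (red at 26 °C, blue at 22 °C), horizontal bars are condition means and brackets span the mean ± 1 SD (n = 3) for 12 members; the vertical axes give log2 expression and the conditions run from WFR 26 °C and WFR 22 °C to WL 26 °C and WL 22 °C. AT5G12110 and PGRL1B show separate temperatures in both lights, and AT5G37990 shows arrays of both temperatures intermixed.

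The selection fixed the averages over light and over temperature and left 1 contrast unused, the interaction. This is the temperature difference in WFR minus that in WL, which equals the far-red difference at 26 °C minus that at 22 °C. It asks whether warmth acted alike with and without far-red light. In limma's moderated test, adjusted over all probe sets, no member was called at an adjusted p under 0.05, and 0% of all probe sets were. At an unadjusted p under 0.05, 13 of 94 members (13.8%) passed, 11 with a smaller difference in WFR and 2 with a larger one, against 5.51% of all probe sets. Without the third WL array at 26 °C, 7 of the members then found (7.61%) passed, against 3.88% of all probe sets. Without the first WL array at 22 °C, 20 (17.9%) passed, against 5.44%, and with weights for array quality 20 (21.3%) passed, against 8.83%. With those weights, limma called 2 probe sets among all and 0 members.

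The interaction was negative in 67 of 94 members (71.3%), against 47.0% of all probe sets. Its median was -0.12 over the members and 0.01 over all probe sets. The median temperature difference was 0.45 in WFR and 0.56 in WL. Among the 43 probe sets with an average temperature difference of -0.4 or less and the same far-red limits, the interaction was negative in 34 (79.1%). There a negative value means a wider gap in WFR. Neither share was tested. The median interaction of the members then found was -0.05 without the second WFR array at 22 °C and -0.05 without the third WL array at 26 °C. After subtraction of array medians it was -0.06, and negative values made up 56.8% of members and 35.9% of all probe sets. In 18 members the difference in WFR was under 50% of that in WL, and in 3 the difference in WL was under 50% of that in WFR.

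The strongest departure was that of AT3G28270, a protein related to the membrane protein At14a. It read 9.65, 10.15 and 9.87 in WFR at 26 °C, against 9.78, 9.63 and 9.72 in WFR at 22 °C. In WL it read 10.03, 10.19 and 10.30 at 26 °C, against 9.23, 9.08 and 9.07 at 22 °C. The temperatures were far apart in WL and overlapped in WFR, where the 22 °C arrays already stood above those of WL. The difference was 0.18 ± 0.11 in WFR and 1.05 ± 0.11 in WL. The interaction of -0.86 ± 0.16 (limma, adjusted p = 0.596) did not pass. Far-red light gave a difference of -0.28 at 26 °C and of 0.58 at 22 °C, so the average of 0.15, inside the limits, joined values of opposite sign.

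AT1G62660, the vacuolar invertase, had a similar form. It read 8.38, 8.90 and 8.55 in WFR at 26 °C, against 8.33, 8.53 and 8.74 in WFR at 22 °C. In WL it read 8.57, 8.78 and 9.18 at 26 °C, against 8.20, 8.08 and 8.04 at 22 °C. Temperatures overlapped in WFR and were separate in WL, and the interaction was -0.66 ± 0.22 (limma, adjusted p = 0.902). The co-chaperone AT2G20560 had an interaction of -0.63 ± 0.17 (limma, adjusted p = 0.902). The methyltransferase AT2G41380 had -0.48 ± 0.22 and CP5 had -0.29 ± 0.12. None of these passed the adjusted test.

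The opposite direction was seen in SIS, a salt-induced serine-rich protein, and in AT4G22490. SIS read 7.14, 7.72 and 7.42 in WFR at 26 °C, against 6.83, 6.78 and 6.77 in WFR at 22 °C. In WL it read 7.28, 7.24 and 7.05 at 26 °C, against 6.96, 6.87 and 6.94 at 22 °C. Its gap was 0.63 in WFR and 0.26 in WL, with an interaction of 0.37 ± 0.16 (limma, adjusted p = 0.902); without the second WFR array at 26 °C the interaction was 0.22. AT4G22490 had an interaction of 0.33 ± 0.14 (limma, adjusted p = 0.902). These were the 2 positive members at an unadjusted p under 0.05, and neither passed after adjustment.

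At the other end, named members had nearly equal differences in both lights. The interaction was 0.00 ± 0.13 in PGRL1B. It was -0.02 ± 0.13 in AT3G24100, a small protein of the SERF family. In AT3G13590, which holds C1 domains, it was -0.02 ± 0.17, and in AT2G25590, which holds a Tudor-like domain, -0.02 ± 0.15. In AT1G52100 it was -0.01 ± 0.28, and the temperatures overlapped in WL. There AT1G52100 read 9.29, 9.65 and 9.34 at 26 °C, against 8.87, 8.57 and 9.64 at 22 °C. With errors of this size, equal differences in both lights are not shown.

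**Figure D3:**
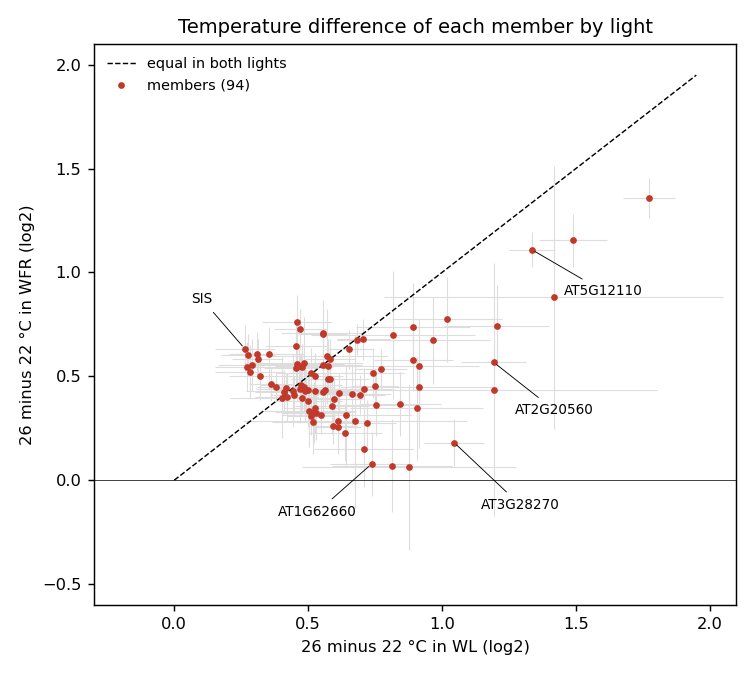
Each point is 1 of the 94 members, with its 26 minus 22 °C difference in WL on the horizontal axis and in WFR on the vertical axis (log2); grey lines are standard errors and the dashed line marks equal differences. AT3G28270 and AT1G62660 lie far below the line, SIS lies above it, and 67 of 94 members lie below it.

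**Figure D4:**
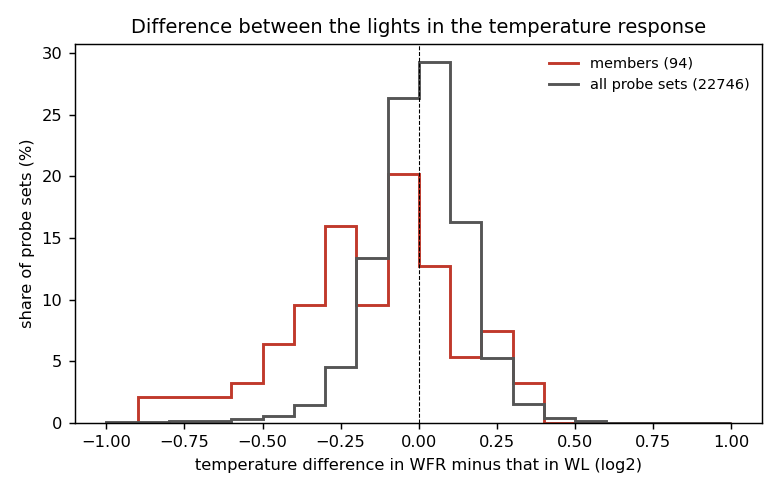
Histograms of the interaction (log2) as a share of the 94 members and of all 22746 probe sets. The members centre on -0.12 and all probe sets on 0.01, and 13.8% of members against 5.51% of all probe sets had an unadjusted p under 0.05.

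The small average far-red difference was made of unequal parts in many members. The far-red difference of single members ran from -0.42 to 0.24 at 26 °C and from -0.28 to 0.58 at 22 °C. Both values lay within 0.15 of 0 in 38 members, and 1 or both lay beyond 0.3 in 10. The difference was negative at 26 °C and positive at 22 °C in 41 members, and the other way round in 14. At 26 °C the WFR arrays all lay above the WL arrays in 1 member, against 9.17% of all probe sets, and all below them in 12, against 5.17%. At 22 °C they all lay above in 8, against 9.16%, and all below in 2, against 7.52%. No member was separate in opposite directions at the 2 temperatures. These parts add up to the average that chose the members, so they are a description.

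The members were brighter and more variable than most probe sets. Their mean level had a median of 8.17, against 6.98 for all probe sets, and 34 members (36.2%) lay among the brightest 25% of probe sets and 1 among the faintest 25%. CP5 and AT2G14910, a chloroplast protein of the MAR-binding filament-like group, were among the brightest named members. The faintest named members were AT3G46280, AT2G45920, which holds a U-box domain, and AT2G41380. The residual standard deviation within conditions had a median of 0.179, against 0.105 over all probe sets. For the 43 probe sets lowered by warmth within the same far-red limits, the median level was 8.37 and the median residual standard deviation 0.179. Neither trait is therefore particular to the members.

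Replicates did not deviate evenly. The plot of deviations gives each array. In the second WFR array at 26 °C, 73 of 94 members (77.7%) lay above their condition mean, against 41.7% of all probe sets. In the first WFR array at 26 °C 20 (21.3%) did, against 48.8% of all probe sets. In WL at 26 °C the share was 33.0% in the first array, against 55.5% of all probe sets, and 67.0% in the third, against 47.7%. In the first WL array at 22 °C it was 63.8%, against 44.2%. Without the second WFR array at 26 °C, the selection found 75 members, 66 of them among the 94. The part of RNA quality or growth in these shifts was not tested.

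**Figure D5:**
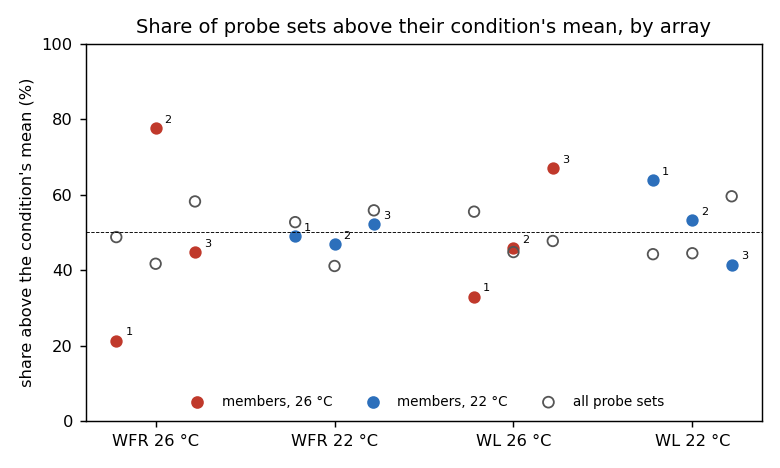
For each of the 12 arrays, the percentage of the 94 members and of all probe sets whose value lay above the mean of its condition; filled dots are members, open dots all probe sets, and small numbers the replicates. The second WFR array at 26 °C stands highest for the members at 77.7% and the first stands lowest at 21.3%.

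Some members deviated together from their condition means. Over the 12 deviations, which leave 8 degrees of freedom, pairs of members had a median correlation of 0.12, against 0.026 for all pairs of probe sets, and 19.4% of member pairs exceeded 0.5, against 11.1%. The pairs share their arrays, so this is a description. The pairs named next were picked from the highest correlations among all pairs of members with a single gene. Their high values follow from that choice, and no share of all probe-set pairs at such values was computed. ARD4 correlated at 0.98 with AT3G60300, at 0.91 with TBL36 and at 0.91 with AT5G02230, a hydrolase of the HAD family. The peroxidase AT5G51890 correlated at 0.91 with AT1G64360. AT3G28270 correlated at 0.88 with AT3G51450, a strictosidine synthase-like protein. PGRL1B correlated at 0.88 with AT2G25590, and SPT at 0.89 with AT5G40020.

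The limits of the selection cut through a continuous range. Just inside the temperature limit lay AT1G52100 at 0.40, TBL36 at 0.40 and AT1G62660 at 0.41, and just outside it lay AT2G19310 at 0.40 (below the limit before rounding), the ATP sulfurylase gene APS3 at 0.39 and AT1G54050 at 0.39. At the far-red limits, AT3G28270 was inside at 0.15, AT1G13990 at -0.13 and AT2G42760 at -0.13. AT1G52000 and AT3G18215 at -0.17 and the methionine sulfoxide reductase gene MSRB9 at -0.17 were outside. AT1G13990 and AT2G42760 were selected under 0 of the 4 other scalings, and AT3G28270 under all 4. AT2G46250, inside at -0.12, was selected under 1 of them.

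Lists of pathway genes were set beside the members for the average temperature difference, for which limma called 2.92% of all probe sets higher and 2.48% lower at 26 °C. None of the list genes that could be matched to a probe set is a member; most could not be matched, and unmatched ones may be among the unnamed members. Of 45 thermomorphogenesis genes written, 1 could be matched to a probe set. It was IAA29, an auxin-response repressor, with a difference of 0.13, and it was not called. None of 16 heat shock factors could be matched. Of 26 genes for protein folding in the endoplasmic reticulum, 4 were measured, meaning matched to a probe set by name, and 0 called. Of 40 wall polysaccharide genes, 9 were measured and 1 was higher, CSLA01, a mannan synthase, by a difference of 1.35 (limma, adjusted p = 0.00132). Of 32 sulphur assimilation genes, 3 were measured and APS3 was higher, by a difference of 0.39 (limma, adjusted p = 0.0109). Of 37 genes for lipid transfer, wax and cutin, 2 were measured and WSD1, a wax ester synthase, was higher, by a difference of 0.35 (limma, adjusted p = 0.0263). Of 46 starch and sugar genes, 9 were measured and ATSPS4F, a sucrose phosphate synthase, was lower, by a difference of -0.31 (limma, adjusted p = 0.00712). CSLA01, WSD1 and ATSPS4F had average far-red differences of -0.25, 0.51 and 0.30, outside the far-red limits of the selection. APS3 lay below its temperature limit. These calls concern genes outside the selection and say nothing about the members.

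In the remaining lists, no gene was called for temperature. They cover 8 of 48 nuclear photosynthesis genes, 1 of 29 nitrogen genes, 1 of 30 clock genes, and 3 of 42 brassinosteroid and gibberellin genes. The median difference was 0.02 over the folding genes, -0.07 over the wall genes, 0.13 over the sulphur genes and 0.21 over the lipid genes. It was -0.05 for starch and sugar, 0.03 for photosynthesis, 0.01 for nitrogen, -0.08 for the clock and 0.00 for both growth hormones, against -0.01 over all probe sets. Probe sets could be matched by name for 1 of 10 leaf, 2 of 20 root, and 1 of 12 meristem and phloem markers. The same held for 4 of 18 trichome, guard cell and epidermis markers. In this order, the median temperature differences were 0.04, -0.02, -0.18 and 0.02. For nitrogen, the clock, leaf, and meristem and phloem, the value is that of 1 gene and does not describe the list. NRT2.5 for nitrogen and CLV3 for the meristem were faint, averaging 4.28 and 4.35 where the lowest array value was 3.34. Along the chromosomes, the pairs AT1G13990 with AT1G14120, JAL22 with AT2G39420, and SIS with AT5G02230 had 10, 13 and 21 protein-coding genes between them. No share of such pairs over all genes was computed, so no clustering of the members is shown.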

How the data were processed

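Expression was measured on 12 one-colour arrays, 3 for each combination of light and temperature. The deposited values are on the log2 scale, already normalised by the authors. Per the submitters' processing notes, RMA, affy and MAS5 were used; no source used here says which of them made this table or in which version. Of 22810 probe sets, 64 controls were left out, and no filter on low values was applied. Names came from the platform annotation, updated through RefSeq records: 13513 probe sets have 1 gene, 503 several and 8730 none.

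Samples were grouped by their labels. Condition means and the contrasts between them were estimated for all probe sets with limma 3.58.1 in R 4.3.3, without trend, with 8 residual degrees of freedom and 5.99 added by moderation. Two-sided p-values were adjusted by the Benjamini-Hochberg method over 22746 probe sets, with a threshold of 0.05, and errors are the model's standard errors.

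The members, the gene lists and the tests were chosen with earlier results of these data known. Named members are the 12 with the highest temperature difference, those with the smallest and largest interactions among members separate in both lights, the brightest and faintest, and those at the temperature limit. ALC, SPT, BHLH101, ARD4, AT5G51890, AT1G06640, AT5G47435, AT2G39420, AT1G77420, JAL22, AT2G07718, AT5G02230, AT3G51450, AT3G60300, AT2G42760 and probe sets 252265_at and 253073_at were named after their values were seen.

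Alternatives were 4 scalings, 2 filters on low values, the replicate number as a block, a trended prior, array weights, other limits of the selection, and leaving out each array. Replicate numbers did not pair the arrays: same-numbered deviations correlated at -0.26 to 0.12. Promoter and protein sequences were not analysed here.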

Additional observations from a re-analysis of the deposited data

How the results depend on the processing

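The selection gave 219 members with the temperature limit at 0.3 and 45 with it at 0.5, and 69 and 111 with the far-red limits at 0.1 and 0.2. Leaving out each array in turn gave 75 to 112 members, and 34 of the 94 were selected in all 12 of these repeats. The 4 other scalings gave 88 to 96 members and 80 of the 94 were selected under all 4 of them. Without the lowest 25% and 50% of probe sets, 93 and 68 members remained. Limma called 0 probe sets for the interaction in every setting tried except array weights, where it called 2, neither of them a member. With the replicate number as a block, 0 probe sets and 0 members were called. At an unadjusted p under 0.05, 11 members (11.7%) passed with this block, against 5.24% of all probe sets. The median interaction of the members was then -0.12. That median ran from -0.19 to -0.05 without single arrays and was -0.06 after subtraction of array medians. The adjusted p of AT3G28270 ranged from 0.0811 with array weights to 0.9998 without the third WL array at 26 °C. The 27 named members checked here leave out those named after their values were seen. In these 27, all 479 temperature differences stayed above 0, the lowest at 0.17. Differences of at least 0.4 on these same arrays chose the members, so the kept sign is no test of them. Of 560 uncalled interactions, 40 changed sign, in 9 members. The causes of these shifts were not tested.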

Other observations

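Over the 49 members without a single gene, the median average temperature difference was 0.49, with a range of 0.40 to 1.57, and over the 45 with a single gene it was 0.50. The 3 members with several genes are among the 49.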
